A study of Homo sapiens with 3 samples.

Results

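The 31 genes described here encode the enzymes that build cholesterol from acetyl-CoA, the proteins that control the SREBP transcription factors, and proteins that carry or esterify sterols. They were taken by name: each row whose gene symbol matched the list was kept, which gave 31 of the 61533 genes in the tables. Polyadenylated RNA had been sequenced from Hep3B, an established human hepatoma line whose genotype is labelled WT, grown in DMEM with fetal bovine serum and antibiotics. There were 3 conditions with 1 library each: normoxia at 20% oxygen, hypoxia at 1% oxygen in a gas-flushed chamber, and hypoxia at 1% oxygen with sodium oxamate. Oxamate resembles pyruvate and blocks lactate dehydrogenase, which turns pyruvate into lactate. The design text gives 48 h for the culture with oxamate and does not say whether the other cultures lasted as long, and the dose of oxamate is not given in the sources used here. With 1 library per condition there is no replicate check and no p-value, and differences between cultures were not measured.

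Cholesterol is made in the endoplasmic reticulum by a long chain of enzymes that first makes isoprenoid units, joins them into squalene, closes squalene into the sterol lanosterol and then trims lanosterol to cholesterol. Most genes of the chain are transcribed under SREBF2, whose protein is a membrane-bound precursor that SCAP escorts to the Golgi for cutting by the site proteases encoded by MBTPS1 and MBTPS2. When sterols are plentiful the INSIG proteins hold SCAP back, and the liver is a main site of both the synthesis and the storage of cholesterol.

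The promoters of members on which the results turn are shown first, as the stretch around the motif matches upstream of the RefSeq gene start (assembly GRCh38.p14), outside any annotated exon of a protein-coding gene. Promoters of 27 of the 31 members were matched by symbol. The motifs searched, on both strands in the 250 bases before the start, were the sterol regulatory element TCACNCCAC, its shorter core CACNCCAC which lies within the first, CCAAT, the box bound by the NF-Y complex, and ACGTG, the core of the element bound by hypoxia-inducible factors. Capitals mark every match of any of the 4 motifs, read on the strand of the gene, so that ATTGG is CCAAT on the other strand and CACGT is ACGTG on the other strand.

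SREBF2 and HMGCS1 are shown as the gene of the main regulator and as the member with the lowest ratio in hypoxia, INSIG1 and INSIG2 as the pair whose ratio differed most between libraries, and MSMO1 and NSDHL as enzymes with several CCAAT boxes. The stretches lie at chr22:41832958-41833017 on the plus strand for SREBF2, chr5:43313535-43313594 on the minus strand for HMGCS1, chr7:155297660-155297722 on the plus strand for INSIG1, chr2:118088349-118088408 on the plus strand for INSIG2, chr4:165327474-165327607 on the plus strand for MSMO1, and chrX:152830825-152830966 on the plus strand for NSDHL.
SREBF2: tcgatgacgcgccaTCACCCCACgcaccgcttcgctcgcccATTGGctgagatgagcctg
HMGCS1: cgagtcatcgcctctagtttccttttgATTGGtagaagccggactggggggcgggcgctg
INSIG1: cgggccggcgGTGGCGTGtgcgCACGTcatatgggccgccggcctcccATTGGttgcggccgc
INSIG2: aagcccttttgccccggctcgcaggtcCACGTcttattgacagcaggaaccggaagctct
MSMO1: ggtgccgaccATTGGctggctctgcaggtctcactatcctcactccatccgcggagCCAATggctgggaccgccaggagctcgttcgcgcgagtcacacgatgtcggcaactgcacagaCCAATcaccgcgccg
NSDHL: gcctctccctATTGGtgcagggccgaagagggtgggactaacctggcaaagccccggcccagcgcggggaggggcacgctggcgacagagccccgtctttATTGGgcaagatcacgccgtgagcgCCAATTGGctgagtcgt

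The SREBF2 stretch holds the whole TCACNCCAC motif, 133 bases before the start, followed by a CCAAT box on the opposite strand. INSIG1 has the shorter core, an ACGTG and a CCAAT box within the stretch shown, whereas INSIG2 has an ACGTG and neither of the others. Within the 250 bases, CCAAT was found for 19 of the 27 members (70.4%), against 37.0% of all 27305 genes with a promoter in the table and 41.9% of the 10251 of them that were measured in these cells. TCACNCCAC was found for 1 of 27 members, SREBF2, for 1.09% of all genes and for 1.16% of measured genes. CACNCCAC was found for IDI1, INSIG1, SC5D and SREBF2 (4 of 27, 14.8%), for 5.89% of all genes and for 6.57% of measured genes. ACGTG was found for 6 of 27 (22.2%), 21.7% of all genes and 28.8% of measured genes. These matches describe letters in a window and do not show binding. Elements that differ from the letters searched or lie outside the window were not counted, so a missing match does not show that an element is absent.

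The libraries held 27412147 fragments in normoxia, 26309340 in hypoxia and 24826365 in hypoxia with oxamate. All 8 genes of a list of hypoxia targets were at least 2-fold higher in hypoxia than in normoxia (median log2 ratio 2.97), as the labels state. All 9 hepatocyte markers were present in every library, with albumin at 5362, 2578 and 1963 FPKM in normoxia, hypoxia and hypoxia with oxamate. Their summed level was 7346, 3771 and 2629 FPKM. Of the 9, 4 (44.4%) were at least 2-fold lower in hypoxia than in normoxia, against 8.06% of all measured genes. Of the markers of other cell types, 6 endothelial genes summed to 0.235, 1.12 and 2.64 FPKM, 6 blood genes to 3.46, 0.480 and 0.479 FPKM and 6 stellate and fibroblast genes to 2.05, 2.76 and 0.924 FPKM. KDR, ERG, CD3E, HBA1, HBB, ACTA2 and DCN were at 0 in every library. PTPRC was at 0 in normoxia and hypoxia, and CDH5 was at 0 in both hypoxic libraries. Other genes of these lists were not absent. PECAM1 had 33, 230 and 499 fragments in normoxia, hypoxia and hypoxia with oxamate, and was thus higher in both hypoxic libraries. In the same order CD14 had 140, 22 and 17 fragments, COL1A1 76, 130 and 51, and PDGFRB 315, 438 and 110. The cholangiocyte list, which holds the epithelial keratin KRT19 and EPCAM, summed to 506, 325 and 359 FPKM. The part of these marker levels in the results for the sterol genes was not tested.

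All 31 genes were measured, meaning that at least 50 fragments were counted in the higher library of each comparison. Levels are given in FPKM, in which fragments are divided by the exon length of the gene and by a scaled library size, so that genes can be compared with one another. The sizes implied by the deposited values were 0.938, 1.06 and 1.02 times the fragment totals of normoxia, hypoxia and hypoxia with oxamate. Ratios are taken from fragments scaled to the normalised library totals, so they can differ slightly from the quotient of the FPKM. A gene is called higher or lower where its ratio was at least 2 and the higher library held at least 50 fragments. Each interval is a 95% exact conditional binomial (Clopper-Pearson) interval, which covers counting error only. It leaves out differences between cultures, since each condition had 1 library. Fragments were not tagged with molecular identifiers, so copies of 1 molecule can be counted more than once. The intervals can therefore be too narrow even for counting error. Of the 31 genes, 16 share no exon bases with another gene annotated in GENCODE 29, and the shares of the others run from 0.469% to 83.2% and are given beside them where large. In bulk RNA, fewer cells that express a gene and less of its RNA per cell cannot be told apart.

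Together the 31 genes took 0.519% of all fragments in normoxia, 0.310% in hypoxia and 0.398% in hypoxia with oxamate. In hypoxia against normoxia, 17 of 31 were lower and 0 were higher, with a median log2 ratio of -1.03. Over all 13554 measured genes, 8.06% were lower and 10.8% were higher, with a median of -0.11. When the libraries were scaled to their total fragments, the median of all genes moved to 0.04 and their calls from 1468 higher and 1093 lower to 1775 higher and 751 lower. Under that scaling 12 of the 31 genes were lower and 1, INSIG2, was higher, with a median of -0.87.

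In hypoxia with oxamate against hypoxia, 5 of 31 were higher and 0 were lower, with a median log2 ratio of 0.33. The background over 13739 measured genes was 5.92% higher and 5.07% lower, with a median of -0.01. The 5 genes were INSIG2, INSIG1, SC5D, MSMO1 and MVK. In hypoxia with oxamate against normoxia, 1 of 31, INSIG2, was higher and 7 were lower, with a median of -0.65, where the background over 13597 measured genes was 15.4% higher and 15.3% lower and their median -0.11. The share of members lower, 22.6%, was thus closer to the background in this comparison than in hypoxia against normoxia, where it was 54.8%. Each pair of these comparisons shares a library, so their values are set side by side and not tested against each other.

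**Figure D1:**
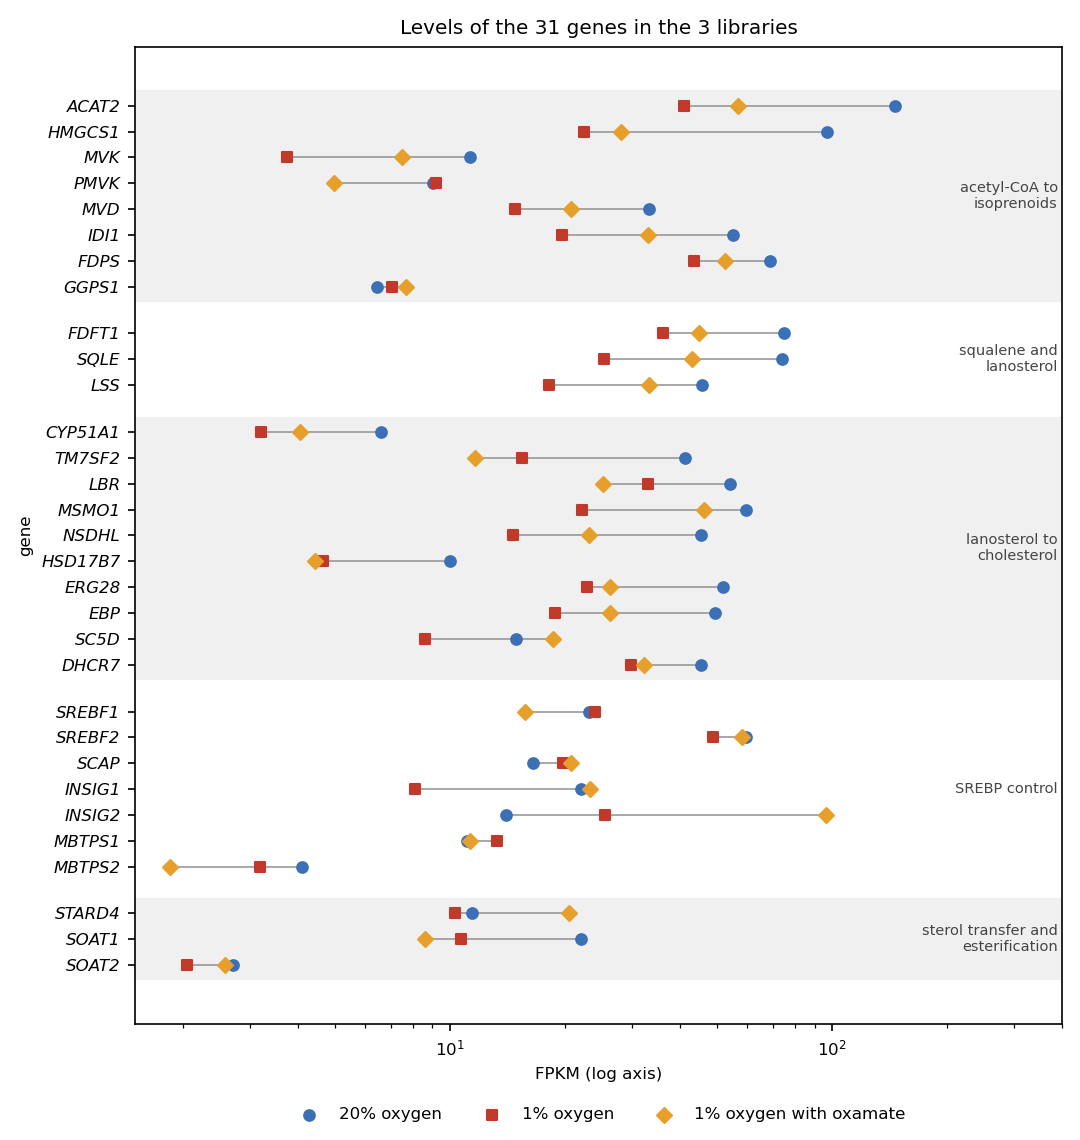
Level of each of the 31 genes in FPKM (horizontal log axis) in the libraries of 20% oxygen (circles), 1% oxygen (squares) and 1% oxygen with oxamate (diamonds), grouped by step of the pathway. Most enzymes have the circle at the right and the square at the left, and INSIG2 has the diamond at the right, at 96.3 FPKM.

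**Figure D2:**
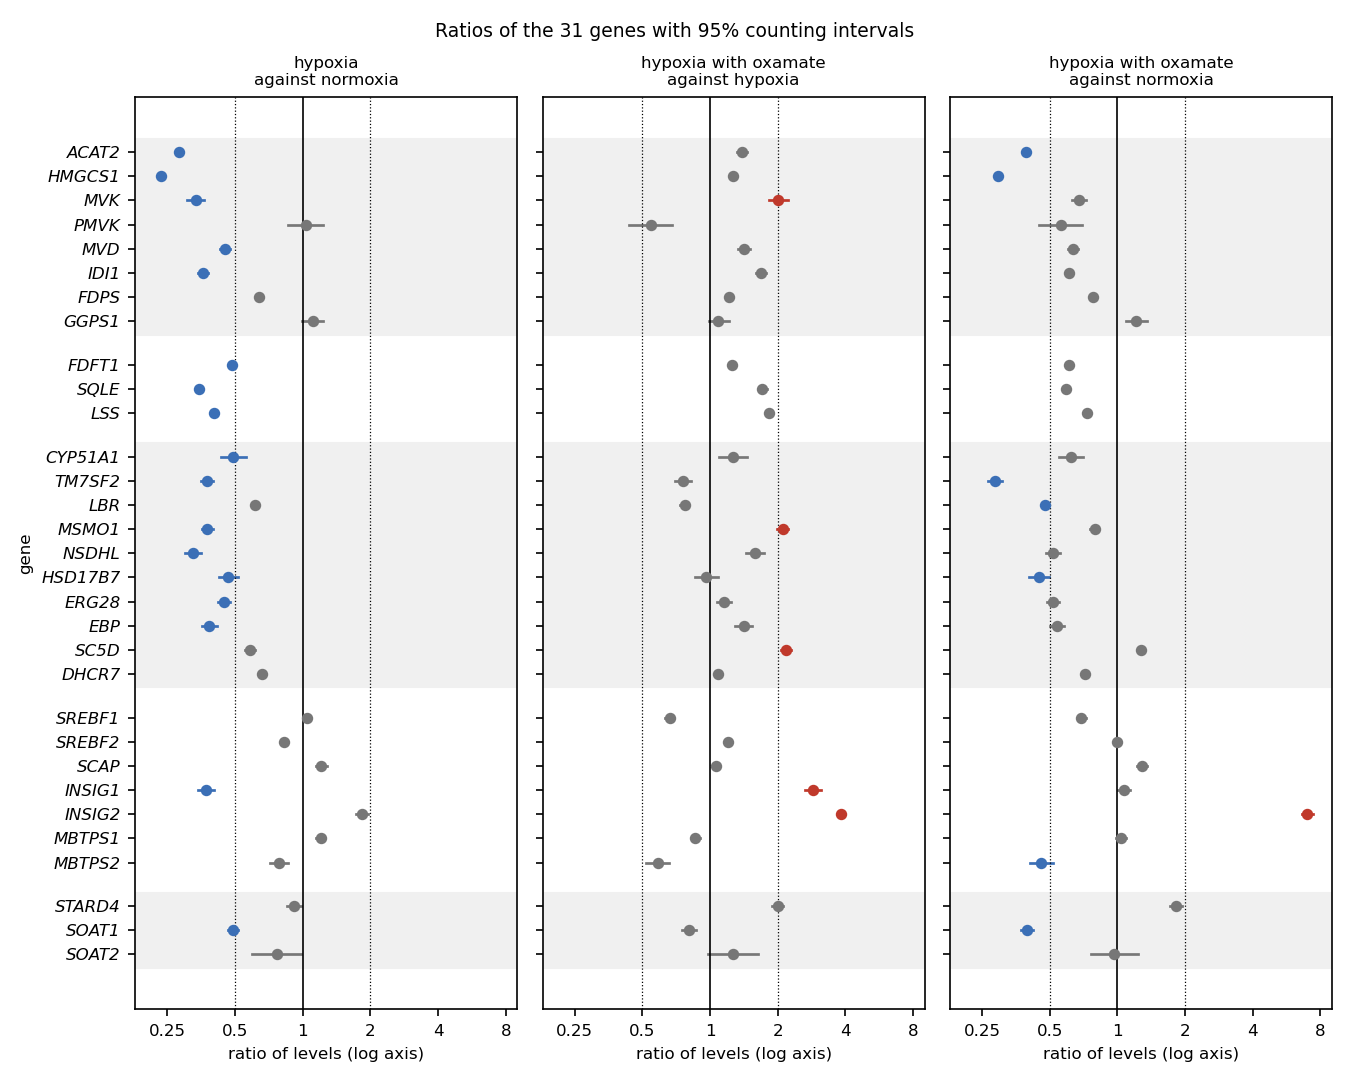
Ratio of levels for each gene on a log axis in the 3 comparisons, with 95% counting intervals as horizontal lines and dotted lines at ratios of 0.5 and 2; blue points are lower and red points higher by the size rule. In hypoxia against normoxia 17 points are blue and none is red, while with oxamate against hypoxia 5 are red and none is blue.

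**Figure D3:**
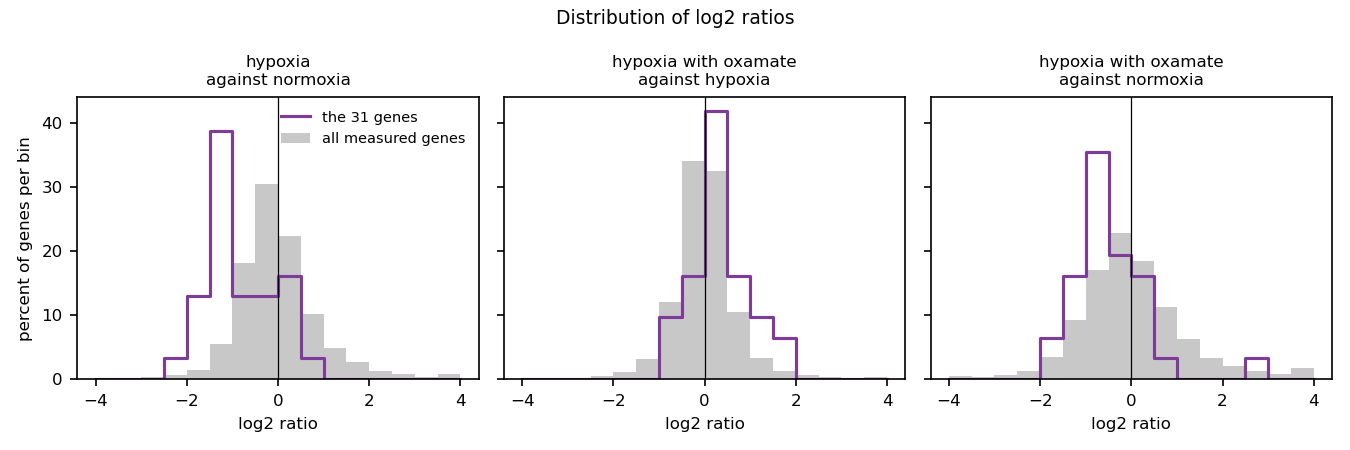
Share of genes, in percent per bin of log2 ratio, for the 31 genes (purple outline) and for all measured genes (grey) in the 3 comparisons. In hypoxia against normoxia the outline is centred near its median of -1.03 and the grey bars near -0.11.

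The enzymes that lead from acetyl-CoA to the isoprenoids were lower in hypoxia for 5 of 8 genes (62.5%), with a median log2 ratio of -1.31. The share lower over all measured genes was 8.06%. Their summed level was 427 FPKM in normoxia, 161 in hypoxia and 211 in hypoxia with oxamate. ACAT2, the cytosolic thiolase that joins a pair of acetyl-CoA units (chr6:159762045-159779112, plus strand), stood at 146 FPKM in normoxia, 41.0 in hypoxia and 56.6 in hypoxia with oxamate. It was the most abundant of the 31 genes in normoxia. Its level was 3.53-fold lower in hypoxia than in normoxia (interval 3.39 to 3.68) and 1.39-fold higher with oxamate than in hypoxia (1.32 to 1.46). Of its exon bases, 52.3% are shared with other annotated genes, so its value is uncertain, since whether the reads were counted by strand is not given in the sources used here.

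HMGCS1, the cytosolic HMG-CoA synthase (chr5:43287470-43313512, minus strand), had the lowest ratio of all 31 genes in hypoxia. It stood at 97.1 FPKM in normoxia, 22.4 in hypoxia and 28.1 with oxamate. The level in hypoxia was 4.28-fold lower than in normoxia (4.14 to 4.43), which put it at rank 132 from the lowest of the 13554 measured genes. With oxamate it was 1.26-fold higher than in hypoxia (1.21 to 1.31) and still 3.40-fold lower than in normoxia (3.30 to 3.52). Its exons share 15.0% of their bases with an antisense gene that had 0 fragments in every library. How reads in the shared bases were counted is not given, so that 0 does not show that HMGCS1 is unaffected.

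MVK, the kinase that starts the conversion of mevalonate, stood at 11.3, 3.74 and 7.47 FPKM in normoxia, hypoxia and hypoxia with oxamate. It was 2.99-fold lower in hypoxia (2.74 to 3.27), and its 2.01-fold higher level with oxamate (1.83 to 2.21) lay at the edge of the size rule. MMAB, which lies head to head with MVK and shares 4.72% of its exon bases, had 1004, 432 and 298 fragments. MMAB was thus lowest in the library with oxamate, where MVK was not. IDI1, the isomerase that balances both isoprenoid units, stood at 55.2, 19.7 and 33.0 FPKM and was 2.77-fold lower in hypoxia (2.64 to 2.91). With oxamate IDI1 was 1.69-fold higher than in hypoxia (1.60 to 1.78), under the rule. MVD, the decarboxylase that makes the first isoprenoid unit, stood at 33.1, 14.8 and 20.7 FPKM and was 2.22-fold lower in hypoxia (2.10 to 2.34).

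The other genes of this step, PMVK, FDPS and GGPS1, were not called in any comparison. PMVK, the kinase between MVK and MVD, stood at 9.04, 9.19 and 4.97 FPKM, and was thus lowest with oxamate, while the interval of its ratio between both oxygen tensions (0.857 to 1.23) held 1. It rested on 233, 256 and 126 fragments, and its ratio with oxamate was 1.84-fold lower than in hypoxia (1.48 to 2.29). Its neighbours on either side in the chain, MVK and MVD, were both higher with oxamate than in hypoxia by point estimate, MVD at 1.41-fold (1.33 to 1.5). FDPS, the synthase of farnesyl diphosphate, from which squalene and the other isoprenoids branch, stood at 68.9, 43.4 and 52.6 FPKM, 1.57-fold lower in hypoxia (1.51 to 1.63). GGPS1, which leads away from cholesterol to geranylgeranyl diphosphate used for protein prenylation, stood at 6.44, 7.06 and 7.67 FPKM, and its interval in hypoxia against normoxia (0.995 to 1.23 for a ratio of 1.11) held 1. GGPS1 shares 41.0% of its exon bases with other genes, among them TBCE on the same strand, and FDPS shares 18.6%.

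All 3 enzymes of the squalene and lanosterol step were lower in hypoxia, against 8.06% of all measured genes, with a median log2 ratio of -1.31. None was called with oxamate against hypoxia (all measured genes: 5.92% higher, 5.07% lower) or against normoxia (15.4% higher, 15.3% lower). FDFT1, the squalene synthase, is the first enzyme committed to sterols and stood at 75.1, 36.1 and 44.8 FPKM in normoxia, hypoxia and hypoxia with oxamate. It was 2.06-fold lower in hypoxia (1.99 to 2.13) and 1.25-fold higher with oxamate than in hypoxia (1.20 to 1.3). SQLE, the squalene epoxidase and the first enzyme of the chain to use molecular oxygen, stood at 74.1, 25.3 and 42.9 FPKM, 2.90-fold lower in hypoxia (2.78 to 3.02). LSS, the cyclase that closes the epoxide into lanosterol, stood at 45.8, 18.2 and 33.1 FPKM, 2.49-fold lower in hypoxia (2.39 to 2.59). With oxamate, SQLE was 1.70-fold (1.63 to 1.79) and LSS 1.83-fold (1.75 to 1.91) higher than in hypoxia, and both lay below normoxia, at 1.70-fold lower (1.64 to 1.76) and 1.36-fold lower (1.32 to 1.41). SQLE and FDFT1 lay close together in normoxia and in hypoxia with oxamate, and apart in hypoxia alone.

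Of the 10 genes that carry lanosterol to cholesterol, 7 (70.0%) were lower in hypoxia, against 8.06% of all measured genes, with a median log2 ratio of -1.13. Their summed level was 378 FPKM in normoxia, 173 in hypoxia and 218 with oxamate. The enzymes of the removal of methyl groups form a working unit. MSMO1, the methyl oxidase, stood at 59.4, 22.2 and 46.2 FPKM in normoxia, hypoxia and hypoxia with oxamate. NSDHL, the decarboxylase that follows it, stood at 45.5, 14.6 and 23.1 FPKM. HSD17B7, the reductase that closes the cycle, stood at 10.0, 4.64 and 4.43 FPKM, and ERG28, the scaffold that tethers these enzymes to one another, at 51.7, 22.8 and 26.2 FPKM. All 4 were lower in hypoxia, NSDHL most, at 3.08-fold (2.84 to 3.34), then MSMO1 at 2.65-fold (2.51 to 2.80), ERG28 at 2.24-fold (2.11 to 2.39) and HSD17B7 at 2.14-fold (1.94 to 2.36), whose intervals overlap.

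With oxamate the same 4 genes spread out. MSMO1 was 2.10-fold higher than in hypoxia (1.98 to 2.22) and was called. NSDHL was 1.59-fold higher (1.45 to 1.74) and ERG28 1.15-fold higher (1.07 to 1.24), both under the rule, while HSD17B7 stood at 1.04-fold lower with an interval that held 1 (0.925 to 1.17). Against normoxia, HSD17B7 with oxamate was 2.23-fold lower (2.01 to 2.47) and MSMO1 1.26-fold lower (1.21 to 1.32). The intervals of HSD17B7 and MSMO1 do not overlap in either comparison, so these members of 1 unit differed by more than the counting error that the intervals cover.

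Just before this unit, CYP51A1 acts on lanosterol, and TM7SF2 and LBR act on the product of CYP51A1. CYP51A1, the oxygen-using demethylase, stood at 6.60, 3.21 and 4.05 FPKM and was 2.04-fold lower in hypoxia (1.79 to 2.31). Its value is uncertain, because 83.2% of its exon bases are shared with other genes, mainly AC000120.2 on the same strand, and that gene had 0 fragments in every library. TM7SF2 and LBR encode alternative sterol reductases for the next reaction, LBR being also a receptor of the inner nuclear membrane that binds lamin B. TM7SF2 stood at 41.3, 15.4 and 11.6 FPKM, 2.66-fold lower in hypoxia (2.50 to 2.83) and 3.50-fold lower with oxamate than in normoxia (3.26 to 3.75), the lowest ratio of the 31 genes in that comparison, with an interval that overlaps that of HMGCS1. LBR stood at 54.1, 32.9 and 25.2 FPKM, 1.62-fold lower in hypoxia (1.57 to 1.68) and 2.11-fold lower with oxamate than in normoxia (2.03 to 2.20). Neither was higher with oxamate than in hypoxia: TM7SF2 was 1.32-fold lower (1.21 to 1.43) and LBR 1.3-fold lower (1.25 to 1.36). The ratio of LBR to TM7SF2 was 1.31 in normoxia (1.26 to 1.36), 2.14 in hypoxia (2.02 to 2.27) and 2.17 with oxamate (2.02 to 2.33).

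The last enzymes of the chain were EBP, SC5D and DHCR7. EBP, the isomerase that moves the ring double bond, stood at 49.4, 18.8 and 26.3 FPKM, 2.61-fold lower in hypoxia (2.41 to 2.82). SC5D, the desaturase that needs oxygen, stood at 14.9, 8.61 and 18.6 FPKM, so that the library with oxamate was the highest. SC5D was 1.71-fold lower in hypoxia (1.63 to 1.80), 2.18-fold higher with oxamate than in hypoxia (2.07 to 2.29) and 1.27-fold higher with oxamate than in normoxia (1.22 to 1.33). DHCR7, the reductase that yields cholesterol, stood at 45.4, 29.7 and 32.2 FPKM, 1.51-fold lower in hypoxia (1.46 to 1.56) and 1.09-fold higher with oxamate than in hypoxia (1.05 to 1.13). SC5D and DHCR7, which act one after the other, therefore had unlike values with oxamate.

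The enzymes that use molecular oxygen, SQLE, CYP51A1, MSMO1 and SC5D, were compared with the other 16 enzymes of the pathway, which include GGPS1. In hypoxia 3 of 4 oxygen users (75.0%) were lower, with a median log2 ratio of -1.22. Of the 16 others 11 (68.8%) were lower, with a median of -1.23. The share lower over all measured genes was 8.06%. With oxamate against hypoxia, 2 of 4 oxygen users were higher, MSMO1 and SC5D, with a median of 0.92, and 1 of 16 others, MVK, with a median of 0.33. The summed level of the 4 was 155 FPKM in normoxia, 59.3 in hypoxia and 112 with oxamate, and that of the 16 was 794, 332 and 412 FPKM. The sums and medians of the 4 include CYP51A1, whose value is uncertain. The medians thus lay together in hypoxia against normoxia and apart with oxamate, over few genes.

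The genes of SREBP control did not move as one. In hypoxia against normoxia 1 of 7 (14.3%) was lower and 0 higher, with a median log2 ratio of 0.06. Over all measured genes 8.06% were lower and 10.8% higher. With oxamate against hypoxia 2 of 7 (28.6%) were higher, with a median of 0.08, against 5.92% of all measured genes. SREBF2, the gene of the main regulator of cholesterol synthesis, stood at 59.4, 48.8 and 58.1 FPKM in normoxia, hypoxia and hypoxia with oxamate. It was the most abundant member in hypoxia. It was 1.21-fold lower in hypoxia (1.17 to 1.24), and with oxamate its ratio to normoxia was 0.995 (0.969 to 1.02). SREBF1, whose products act mainly on fatty acid genes, stood at 23.1, 23.9 and 15.7 FPKM and its level with oxamate was 1.51-fold under that of hypoxia (1.45 to 1.58). It shares 6.92% of its exon bases with RAI1 on the opposite strand, which had 2668, 2914 and 2286 fragments. The ratio of SREBF2 to SREBF1 was 2.57 in normoxia (2.49 to 2.66), 2.04 in hypoxia (1.98 to 2.11) and 3.71 with oxamate (3.56 to 3.85). These are transcript levels, and the cutting and the nuclear amounts of the SREBP proteins were not measured.

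INSIG1 and INSIG2 encode the related anchors that hold SCAP in the endoplasmic reticulum, and INSIG1 is itself a known SREBP target. INSIG1 (chr7:155297776-155310235, plus strand) stood at 22.0 FPKM in normoxia, 8.12 in hypoxia and 23.2 with oxamate. It was 2.68-fold lower in hypoxia (2.47 to 2.91) and 2.88-fold higher with oxamate than in hypoxia (2.65 to 3.12), and its level with oxamate was 1.07-fold that of normoxia (1.01 to 1.14). INSIG2 (chr2:118088452-118110997, plus strand) stood at 14 FPKM in normoxia, 25.4 in hypoxia and 96.3 with oxamate, where it was the most abundant of the 31 genes. It was 1.83-fold higher in hypoxia (1.72 to 1.95), 3.82-fold higher with oxamate than in hypoxia (3.66 to 3.98) and 6.99-fold higher with oxamate than in normoxia (6.61 to 7.39). These ratios placed INSIG2 at rank 187 from the highest of 13739 measured genes with oxamate against hypoxia, and at rank 405 of 13597 with oxamate against normoxia. Neither gene shares exon bases with another annotated gene.

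The pair therefore changed order. The ratio of INSIG2 to INSIG1 in FPKM was 0.637 in normoxia (0.595 to 0.682), 3.13 in hypoxia (2.89 to 3.39) and 4.15 with oxamate (3.96 to 4.35), so INSIG2 made up 38.9%, 75.8% and 80.6% of their summed level.

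**Figure D4:**
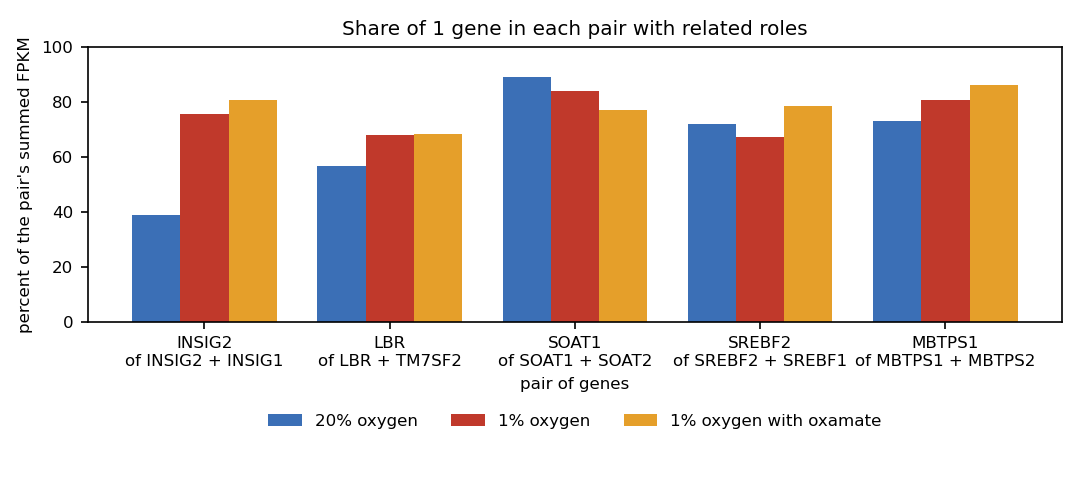
Share of the first-named gene, in percent of the summed FPKM of each pair of genes with related roles, in the libraries of 20% oxygen (blue), 1% oxygen (red) and 1% oxygen with oxamate (orange). INSIG2 made up 38.9% of its pair in normoxia and 75.8% and 80.6% in the hypoxic libraries, while SREBF2 stayed above SREBF1 in all 3 libraries.

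SCAP, the escort of the SREBP precursors, stood at 16.5, 19.8 and 20.8 FPKM and was 1.21-fold higher in hypoxia (1.15 to 1.28). The site proteases were unlike each other. MBTPS1, the serine protease that makes the first cut, stood at 11.1, 13.3 and 11.3 FPKM, 1.20-fold higher in hypoxia (1.15 to 1.26) and 1.16-fold lower with oxamate than in hypoxia (1.11 to 1.22). MBTPS2, the metalloprotease that makes the second cut within the membrane, stood at 4.10, 3.18 and 1.85 FPKM and was 2.18-fold lower with oxamate than in normoxia (1.94 to 2.45). The ratio of MBTPS1 to MBTPS2 was 2.71 in normoxia (2.52 to 2.92), 4.17 in hypoxia (3.86 to 4.51) and 6.14 with oxamate (5.54 to 6.82). MBTPS2 shares 13.4% of its exon bases with other genes, among them YY2, which lies inside it on the same strand and had 52, 17 and 15 fragments.

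Of the 3 genes of sterol transfer and esterification, 1 (33.3%), SOAT1, was lower in hypoxia and with oxamate against normoxia. The shares lower over all measured genes were 8.06% and 15.3%. STARD4 and SOAT2 were not called in any comparison. STARD4, a soluble sterol carrier known as an SREBP target, stood at 11.4, 10.3 and 20.5 FPKM. It was 1.09-fold lower in hypoxia (1.02 to 1.17), a direction that turned under scaling to total fragments (log2 ratio 0.03 in place of -0.13), and with oxamate it was 2.0-fold higher than in hypoxia (1.88 to 2.12), a ratio that rounds to 2 and lay just under the rule. Its antisense neighbour STARD4-AS1, which shares 2.18% of the exon bases of STARD4, had 218, 945 and 615 fragments. SOAT1, the acyltransferase that esterifies cholesterol in most tissues, stood at 22.0, 10.7 and 8.58 FPKM, 2.04-fold lower in hypoxia (1.93 to 2.15) and 2.53-fold lower with oxamate than in normoxia (2.38 to 2.68). SOAT2, its relative of liver and intestine, was among the least abundant members at 2.70, 2.05 and 2.58 FPKM, on 144, 118 and 135 fragments, and with oxamate its interval against hypoxia (0.981 to 1.63 for a ratio of 1.27) held 1. SOAT1 exceeded SOAT2 by 8.16-fold in normoxia (6.91 to 9.71), 5.23-fold in hypoxia (4.34 to 6.35) and 3.33-fold with oxamate (2.79 to 4.0).

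The members were also split by the CCAAT box. ACAT2, FDFT1 and SQLE, all lower in hypoxia, and SOAT2, not called, had no matched promoter and are in neither set. Among the 19 genes with a CCAAT in the 250 bases before a start, 13 were lower in hypoxia against normoxia. Their median log2 ratio was -1.16, with a range from -2.10 to 0.15. Over all measured genes 8.06% were lower in that comparison. Among the 8 genes without one, 1 was lower, CYP51A1, with a median of 0.05 and a range from -1.02 to 0.87. With oxamate against hypoxia, 4 of 19 genes with the box and 1 of 8 without it were higher, with medians of 0.50 and -0.30. The share higher over all measured genes was 5.92%. With oxamate against normoxia the sets lay together: 4 of 19 and 2 of 8 were lower, with medians of -0.57 and -0.60. The share lower over all measured genes was 15.3%. All measured genes were not themselves split by the box. Most of the 19 are enzymes and most of the 8 are control genes, so the box and the role of the gene cannot be told apart here. By length and base composition the members were near other measured genes, with a median exon length of 4717 bases against 5140 and a median GC content of 48.8% against 48.0%.

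Genes of neighbouring pathways were counted by the same rule, against the same background of 10.8% higher and 8.06% lower in hypoxia and of 5.92% higher and 5.07% lower with oxamate against hypoxia. Of 14 genes listed as targets of SREBP-1, most of them of fatty acid synthesis, 6 (42.9%) were lower in hypoxia, with a median log2 ratio of -0.86, and with oxamate against hypoxia 2 (14.3%) were higher and 2 (14.3%) lower around a median of 0.06. The 6 include TMEM97, which encodes a sterol-regulated protein that binds NPC1 and is not a fatty acid gene; it is named after its values were seen and was 3.34-fold lower (3.21 to 3.47). GPAM, which starts glycerolipid synthesis, was the lowest of them and had 1474, 67 and 2 fragments in normoxia, hypoxia and hypoxia with oxamate, the last 30.3-fold lower than in hypoxia (8.06 to 255). ME1, a source of NADPH for lipid synthesis, had the highest ratio with oxamate against hypoxia, 3.89-fold (3.54 to 4.28). Of 13 genes that use isoprenoids for dolichol, coenzyme Q or prenylation, 2 (15.4%) were lower in hypoxia, against 8.06% of all measured genes, with a median of -0.35. PDSS1, which makes the side chain of coenzyme Q, was the lowest of these, at 3.41-fold (2.90 to 4.03).

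None of 12 genes of sterol-regulated degradation in the endoplasmic reticulum was called in any of the 3 comparisons, with medians of -0.18, 0.11 and -0.04 for hypoxia against normoxia, oxamate against hypoxia and oxamate against normoxia. Of 12 measured genes of intracellular sterol movement, 1 was higher and 1 lower in hypoxia (8.33% each, near the background of 10.8% and 8.06%), and 0 were called with oxamate against hypoxia. The transporter NPC1, which moves cholesterol out of lysosomes, had the highest ratio of that list with oxamate against hypoxia, 1.84-fold (1.73 to 1.95). Of 6 measured oxysterol and LXR genes, 1 (16.7%, against 8.06% of all measured genes) was lower in hypoxia, CYP27A1, a hydroxylase that makes oxysterols, at 2.32-fold (2.04 to 2.64). With oxamate against hypoxia 1 of the 6 (16.7%, against 5.92%) was higher, the cholesterol exporter ABCA1, at 2.49-fold (2.32 to 2.67).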

How the data were processed

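The authors deposited 1 value per gene and library; the values were taken as FPKM, since the file headers name only the condition. Per the submitters' processing notes, HISAT2 2.0.5, featureCounts 1.5.0-p3 and StringTie 1.3.3b were among the tools and hg38 was the build, without their roles; strand, filters and annotation are not stated. Every deposited FPKM above 0, once multiplied by the deposited gene length, lay within 0.01 of a whole number of library-specific steps (100% of values), and these fragments were used. The library totals, given in the report, set the counting error that the intervals show.

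Scaling used trimmed means of M values (TMM), trimming 30% of log ratios and 5% of levels over genes with 10 or more fragments in all. The factors were 0.944 for normoxia, 1.05 for hypoxia and 1.01 for hypoxia with oxamate. Python 3.11.15 was used with scipy 1.17.1, statsmodels 0.14.6, numpy 2.4.6 and pandas 2.3.3. Log2 ratios used a prior count of 0.5. With 1 library per condition no test was run, and the size rule stands in its place. The scaling, ratios and size rule were run on simulated libraries with counting error only and known changes in a small set of genes. Those libraries held no differences between cultures, so they cannot show how such differences bear on the calls. Exon overlap came from GENCODE 29 and promoters from RefSeq GRCh38.p14. The members and lists were chosen with earlier results of these data known. All members are named; in the other lists, the genes with the highest or lowest ratio of a comparison could be named. Alternatives covered scaling, the fragment minimum, the size rule, the prior count, length and GC trends, the deposited FPKM ratios and members that share exons.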

Additional observations from a re-analysis of the deposited data

How the results depend on the processing

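The main counts were 0 higher and 17 lower of 31 in hypoxia against normoxia, 5 and 0 with oxamate against hypoxia, and 1 and 7 with oxamate against normoxia. In hypoxia against normoxia, 1 member was higher under scaling to total fragments and 1 under a 1.5-fold rule, INSIG2 in both cases, and 8 of 16 were lower without the members that share exons. With oxamate against hypoxia, the 1.5-fold rule gave 10 higher and 3 lower, and 3 were higher where the whole interval had to pass 2-fold. With oxamate against normoxia, the 1.5-fold rule gave 2 higher and 16 lower, and without members that share exons 3 of 16 were lower. The counts without members that share exons are out of 16 and not 31, so part of their difference from the main counts is the smaller set. Other counts stayed within 1.5 times the main count, and no called member changed direction.

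Single calls changed too. With total fragments, MVD (log2 ratio -0.99), FDFT1 (-0.88), CYP51A1 (-0.87), HSD17B7 (-0.94) and SOAT1 (-0.87) were no longer called in hypoxia, nor LBR with oxamate against normoxia (-0.98). MVK with oxamate against hypoxia missed the rule under total fragments, median-of-ratios scaling, deposited FPKM and removal of the length trend, which also took CYP51A1 and ERG28 out in hypoxia. Median-of-ratios scaling and the deposited FPKM gave the same counts over all genes in each comparison, so they did not act as separate checks. Of members not called, log2 ratios near 0 changed sign: in hypoxia SREBF1 from 0.06 to -0.05 (length trend removed) and STARD4 from -0.13 to 0.03 (total fragments), and with oxamate against normoxia SREBF2 from -0.01 to 0.09 (total fragments) and 0.08 (GC trend removed), MBTPS1 from 0.05 to -0.15 (length trend removed) and SOAT2 from -0.04 to 0.05, 0.17 and 0.04 (total fragments, length trend and GC trend). The cause was not tested. The median log2 ratio of the members ranged from -1.05 to -0.87, from 0.27 to 0.42 and from -0.67 to -0.55 in the 3 comparisons. No paired analysis was possible because each condition had 1 library. Depth bore most on PMVK and SOAT2, which had the fewest fragments and the widest intervals.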
